A study of Drosophila melanogaster with 3 samples.

Results

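Of the 8143 peaks kept for a GFP-tagged abd-A protein at an irreproducible discovery rate (IDR) threshold, a measure of how well peak ranks repeat between replicates, 2072 (25.4%) had their summit in an intron close to a transcription start. A summit was counted where it lay inside an annotated gene, in no annotated exon, and more than 500 bp but at most 5000 bp from the nearest annotated start. Chromatin came from 3 biological replicates of whole Drosophila melanogaster embryos, male and female pooled, aged 4 to 24 hours, of a transgenic line that carries abd-A fused at its C-terminus to GFP. It was precipitated with an antibody to GFP and sequenced. There was 1 group and no second condition, so these intronic peaks were compared with other peaks of the same 3 replicates. Because whole embryos were pooled, strong binding in few cells and weak binding in many cannot be told apart. Binding by the tagged protein was also not separated from nonspecific precipitation, since no control peaks were analysed here.

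Within the Bithorax complex, abd-A is one of the Hox genes whose homeodomain proteins give the abdominal segments their identity. Hox proteins bind short sequences rich in A and T, often beside the cofactors Extradenticle and Homothorax, and act on genes mainly through enhancers. In the compact fly genome many enhancers lie in introns, above all in the long introns that follow the start of developmental genes.

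The sequences below run from 50 bp before to 50 bp after the summit of the strongest such peak in each of the 8 strongest host genes outside arm R of chromosome 2, which leaves out CG10543, read from the plus strand of the RefSeq copy of dm6, and they show which of the words below stand at these sites. Capitals mark 4 short words sought on both strands: TAATTA, the palindromic core of many homeodomain sites; TTTATG, letters found in sites of posterior Hox proteins; GAGAG, bound by GAGA factor; and CACACA, a short CA repeat.
tna: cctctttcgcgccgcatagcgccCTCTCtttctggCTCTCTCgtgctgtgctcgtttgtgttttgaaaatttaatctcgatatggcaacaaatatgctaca
CG16779: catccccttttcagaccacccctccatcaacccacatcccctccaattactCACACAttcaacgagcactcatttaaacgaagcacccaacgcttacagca
ush: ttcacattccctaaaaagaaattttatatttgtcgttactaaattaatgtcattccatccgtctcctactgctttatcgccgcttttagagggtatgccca
Dad: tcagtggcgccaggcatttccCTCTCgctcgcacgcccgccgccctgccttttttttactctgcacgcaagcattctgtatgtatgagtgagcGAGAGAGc
gpp: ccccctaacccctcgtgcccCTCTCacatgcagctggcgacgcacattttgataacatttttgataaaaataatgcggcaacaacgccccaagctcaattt
Lk6: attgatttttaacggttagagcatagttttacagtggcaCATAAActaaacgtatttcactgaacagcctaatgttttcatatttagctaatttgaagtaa
br: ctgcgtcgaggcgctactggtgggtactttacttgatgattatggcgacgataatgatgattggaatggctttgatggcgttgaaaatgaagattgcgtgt
lncRNA:bxd: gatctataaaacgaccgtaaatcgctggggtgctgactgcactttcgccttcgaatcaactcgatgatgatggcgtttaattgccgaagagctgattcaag
The windows lie at chr3L:10856702-10856802 (tna), chr3R:9491209-9491309 (CG16779), chr2L:481069-481169 (ush), chr3R:17056419-17056519 (Dad), chr3R:6414523-6414623 (gpp), chr3R:11760999-11761099 (Lk6), chrX:1606277-1606377 (br) and chr3R:16770923-16771023 (lncRNA:bxd). All 8 summits lie in a first intron of at least 1 annotated transcript. GAGAG occurred 3 times in the tna window, 3 times in the Dad window and 1 time in the gpp window, counting overlapping matches. TTTATG occurred 1 time, in the Lk6 window, on the reverse strand as CATAAA. The repeat CACACA occurred 1 time, in the CG16779 window. None of the 8 windows held TAATTA, and the ush, br and lncRNA:bxd windows held none of the 4 words.

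Intronic peaks near a start were ordered by rank in the IDR list, which follows the pooled signal. In that order the strongest peak lay in tna, a trithorax group gene whose product acts with the Brahma chromatin remodelling complex. It covered chr3L:10855951-10857235, with the summit 1137 bp upstream of the nearest tna start and inside an intron of another tna transcript. Its signal value was 17.3, 16.6 and 15.9 times the median of the peak list in replicates 1, 2 and 3, a mean of 16.6 ± 0.704 (SD, n = 3). The signal value is the score of the authors' peak caller, and it was read only relative to the median of the same list. CG16779 held the peak ranked 13 of the IDR list (chr3R:9490880-9491631), 2418 bp downstream of its start. Replicates differed more there, at 18.5, 13.8 and 18.1 times the list median, with replicate 2 lowest. The replicate means of CG16779, 16.8, and of CG10543, 16.7, were slightly above that of tna. The peak in ush, which encodes a zinc finger cofactor of GATA factors, covered chr2L:480592-481708 and lay in a ush intron, but its nearest start was that of the neighbouring gene cbt, 1431 bp away. It stood at 15.3, 15.1 and 16.4 times the list median.

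Regulators of signalling, chromatin and the response to ecdysone followed. Dad, the inhibitory Smad of the BMP pathway, had its peak 1572 bp downstream of its start (chr3R:17056145-17056972), at 14.2, 16.5 and 15 times the list median. The peak in gpp, the fly's Dot1 histone methyltransferase (chr3R:6413783-6414881), lay 4995 bp from the nearest start, that of a noncoding RNA gene, close to the outer limit of the rule. It stood at 17.0, 14.4 and 14.9 times the list median. Lk6, a kinase of the translation factor eIF4E, carried 15.3, 14.0 and 14.8 times the list median at chr3R:11760820-11761518. br, an early ecdysone-induced gene for zinc finger transcription factors, carried 15, 14 and 14 times at chrX:1605991-1606760, where the gene Mur2B also overlaps the summit. In these 4 genes no peak of the IDR list lay within 500 bp of the nearest annotated start, while tna, CG16779 and ush (at the cbt start) had such a peak as well.

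Within the Bithorax complex, the strongest member of the class lay in the noncoding RNA gene lncRNA:bxd, transcribed from regulatory DNA upstream of Ubx. Its interval, chr3R:16770534-16772548, holds several summits that share 1 signal value per replicate, at 11.8, 13.5 and 12.4 times the list median. This summit ranked 34 in the IDR list. How many copies of this locus the line carried is not given in the sources used here.

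The other strong members ranked between 12 and 70 in the IDR list. CG10543 stood second in the class (chr2R:20996652-20998555), at 17.2, 17.6 and 15.3 times the list median. The nuclear receptor gene EcR, which encodes the ecdysone receptor, carried 10.8, 10.7 and 9.95 times at chr2R:6149230-6150159. Dg, the dystroglycan gene, carried 12.1, 8.81 and 10.2 times at chr2R:16096254-16096847. The widest spread was in Kdm2, a histone demethylase gene (chr3R:9057268-9057885), with 15.7 times the list median in replicate 2 against 9.19 in replicate 1 and 8.25 in replicate 3. Its coefficient of variation was 36.8%, and those of the other 19 lay between 3.84% and 17.8%. The rest of the 20 had their summits in ckn, CG11050, GATAd, Tlk, SNF4Agamma, CG44838, CG9663 and crol, with means between 10.5 and 12.4 times the list median. All 20 overlapped one of the 8143 strongest peaks of each replicate.

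**Figure D1:**
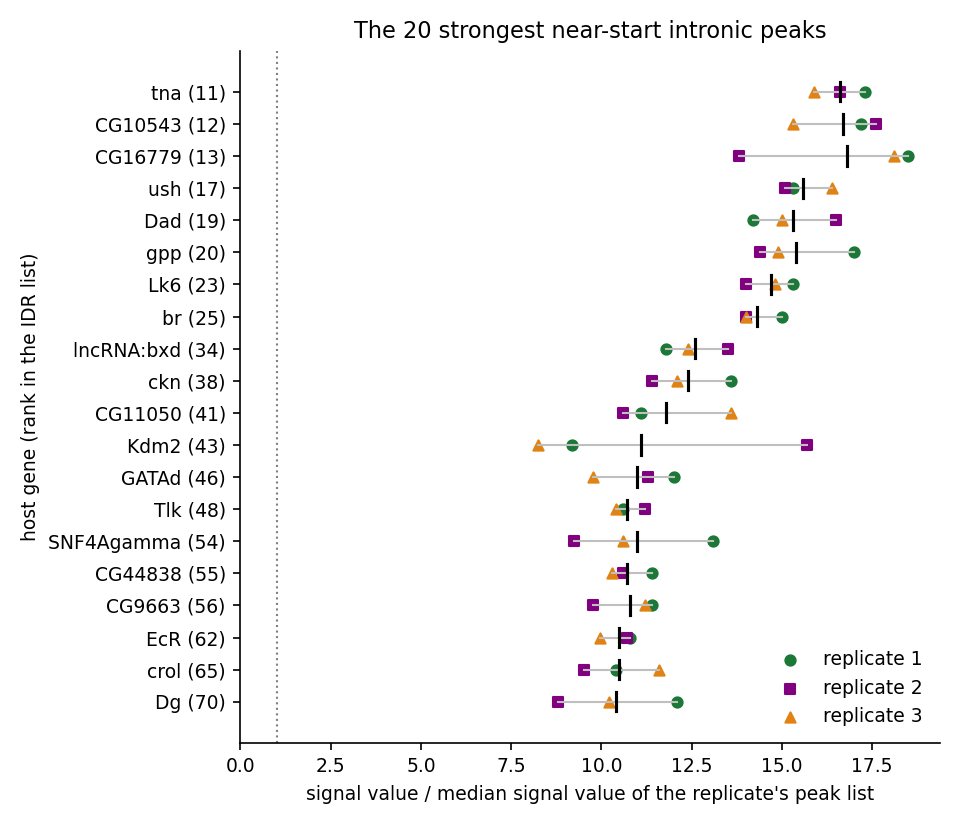
Signal value of the 20 strongest intronic peaks near a start, as a multiple of the median signal value of each replicate's list (x axis), by host gene and rank in the IDR list (y axis). Points are replicates, black ticks their mean and grey lines their range; all points lie at 8.25 times the median or above, and Kdm2 has the widest range.

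As a class the members were of ordinary strength for the IDR list. With the 9, 9 and 10 members that no peak of replicates 1, 2 and 3 overlapped counted as 0, their median signal was 2.49, 2.41 and 2.46 times the list median in replicates 1, 2 and 3, a mean of 2.45 ± 0.0412 (SD, n = 3). Intronic peaks further than 5000 bp from a start were weaker in each replicate, at 2.33 ± 0.0578, a difference of 0.127 ± 0.0250 (exact paired permutation test, two-sided, p = 0.25). With 3 replicates 0.25 is the smallest p this test can give, so no comparison of this kind could pass 0.05 and the replicate values are the evidence shown. Intergenic peaks at the same distance stood at 2.42 ± 0.0601, and the difference of 0.0377 ± 0.0304 (exact p = 0.25) was close to its own spread. Peaks within 500 bp of a start stood at 2.51 ± 0.0934, and members were lower there in only 2 of 3 replicates (difference -0.0602 ± 0.0531, exact p = 0.50). In the pooled list, members ran from 1.59 to 18.1 times the median with 95% of them at or below 6.54, while the strongest peak of the whole IDR list reached 54.0.

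Replicate support followed strength. Of the 2072 members, 1530 (73.8%, 95% Clopper-Pearson interval 71.9 to 75.7) overlapped by at least 1 bp one of the 8143 strongest peaks in all 3 replicates, against 72.8% of all IDR peaks, and the interval takes in that background. A further 396 were supported by 2 replicates, 141 by 1 and 5 by none. Among the strongest 20% of members 98.8% were supported by all 3, against 21.7% of the weakest 20%. Summits repeated closely, with median offsets of 17, 18 and 17 bp between the member and the nearest overlapping replicate summit. The IDR list was made from these replicates, so this support is a description. Support also required a rank of 8143 or better in each replicate, and the IDR list was cut at the same rank of the pooled list. Weak members thus lie close to that cut, so the difference by strength is in part built in. With all peaks of each list, 98.7% of members were overlapped in all 3 replicates.

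Density was compared next, because introns near starts make up much of the genome. The 24.5 Mb that meets the rule (18.3% of the main arms) held 82.9, 85.5 and 86.1 summits per Mb among the 8143 strongest peaks of replicates 1, 2 and 3, a mean of 84.8 ± 1.69 (SD, n = 3). Introns beyond 5000 bp held 59.1 ± 1.66 per Mb, so that the ratio was 1.44, 1.40 and 1.47 in the replicates (1.44 ± 0.0323, higher in 3 of 3, exact paired permutation p = 0.25). Intergenic sequence 500 to 5000 bp from a start held 73.6 ± 0.348 per Mb, a ratio of 1.15 ± 0.0241, and sequence within 500 bp of a start 126 ± 4.06 per Mb, a ratio of 0.671 ± 0.0338.

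The excess over far introns did not sit at the 5000 bp limit. Inside introns the density was 96.5 ± 4.06 per Mb at 500 to 1000 bp from a start, 77.3 ± 2.22 between 2000 and 3000 bp, 80.7 ± 4.56 between 3000 and 4000 bp and 74.6 ± 2.27 between 4000 and 5000 bp. The fall was not steady, since the bin at 3000 to 4000 bp was above the one before it in each replicate. Past the limit it was 78.2 ± 2.40 per Mb up to 7500 bp and 67.4 ± 1.05 between 10000 and 20000 bp, and only beyond 20000 bp did it drop to 28.8 ± 1.98. With far introns limited to 20000 bp from a start the ratio was 1.17 ± 0.0178. Between genes the density was lower than in introns in every distance bin, by the least at 500 to 1000 bp, where it was 91.1 ± 3.05 per Mb. The members nearest the limits of the rule were summits 502 bp from the starts of spi and kermit, with summits in tou at 498 bp and Cipc at 500 bp left out. At the outer limit summits in CG42324 at 4998 bp and trol at 5000 bp were kept, and summits in Eip75B at 5015 bp and rdx at 5017 bp were left out.

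**Figure D2:**
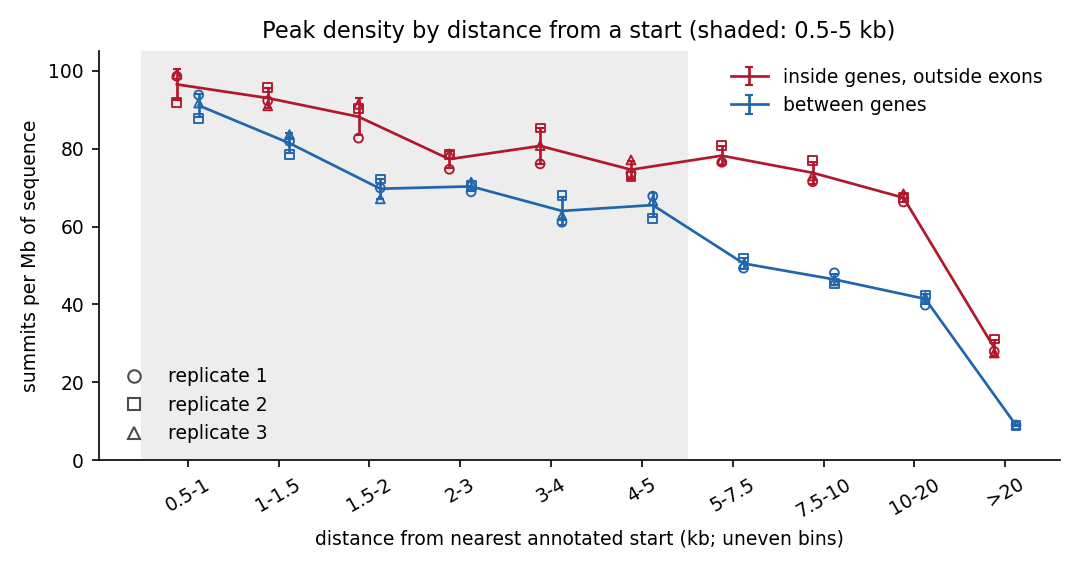
Summits per Mb of sequence (y axis) by distance from the nearest annotated start (x axis, uneven bins), for sequence inside genes and outside exons (red) and between genes (blue). Lines join means of 3 replicates with SD bars and symbols show each replicate; the shaded bins are the class described here, where introns stand at 96.5 per Mb at 500 to 1000 bp, 80.7 at 3000 to 4000 bp and 74.6 at 4000 to 5000 bp.

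Density varied over a wider range with place in the intron than with distance from the start. Among sequence that meets the rule, replicate summits numbered 12.8 ± 1.43 per Mb within 100 bp of an exon (SD, n = 3), at 200 to 300 bp 70.3 ± 8.02, and at 500 to 1000 bp 112 ± 5.24. Introns shorter than 1000 bp held 17.1 ± 1.42 per Mb, those of 2000 to 5000 bp 93.5 ± 5.11, those of 10000 to 20000 bp 109 ± 4.97, and those over 20000 bp 89.1 ± 1.86, lower than the bin before in each replicate. The members themselves stood at 9.36 per Mb within 100 bp of an exon and 110 per Mb at 500 to 1000 bp. These 2 measures overlap, since no position in a short intron is far from an exon. The median member lay 1180 bp from the nearest exon in an intron of 9048 bp, against 901 bp and 6896 bp for all positions that meet the rule.

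First introns held 1465 members, or 70.7% (interval 68.7 to 72.7), although they make up 57.4% of the sequence that meets the rule. The share was 71.5%, 70.8% and 71.3% in the replicates. Introns after the second held 10.6% of members, against 20.7% of the sequence. The nearest start belonged to a gene over the summit in 71.3% of members, against 65.6% of positions. Whichever gene the nearest start belonged to, 60.5% of members lay downstream of it, against 65.5% of positions. Both held for 48.9% of members, against 51.3% of positions. Protein-coding genes were hosts of 97.8% of members, and 135 members (6.52%) lay in more than 1 gene, so that their host is uncertain.

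**Figure D3:**
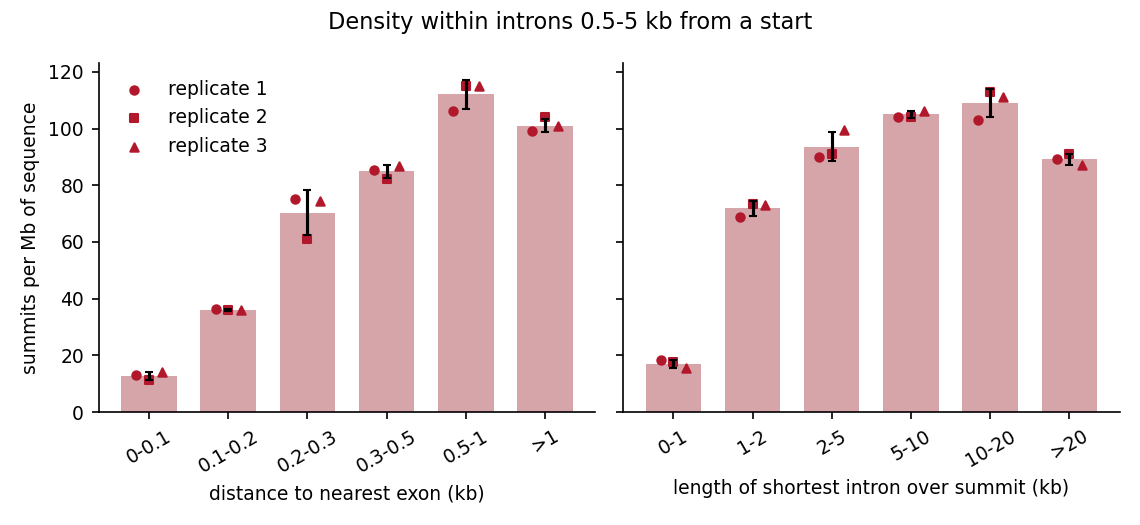
Summits per Mb of intronic sequence 500 to 5000 bp from a start (y axis), by distance to the nearest exon (left) and by length of the shortest intron over the summit (right). Bars are means of 3 replicates with SD and symbols are replicates; the lowest bars are 12.8 per Mb within 100 bp of an exon and 17.1 per Mb in introns under 1000 bp.

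Chromosome arms differed in density. Replicate summits in sequence that meets the rule stood at 102 ± 3.91 per Mb on 2R, 93.5 ± 2.04 on 3L, 88.7 ± 1.56 on 3R and 83 ± 0.724 on 2L (SD, n = 3). The X held 61.9 ± 1.19 per Mb, below each large autosomal arm in all 3 replicates, and members stood at 60.3 per Mb there. Chromosome 4, with 0.316 Mb of such sequence, held 5 members.

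Members often stood near a bound start. For 762 members (36.8%, interval 34.7 to 38.9) an IDR summit lay within 500 bp of the nearest start, against 12.3% of all annotated protein-coding starts and 18.9% of positions that meet the rule. The replicates gave 37.3%, 33.8% and 39.1% for members, against 33.7%, 29.5% and 35.6% for far intronic peaks and 27.9%, 26.2% and 27.5% for intergenic peaks at the same distance. Members were higher than either class in each replicate. The share did not rise steadily towards the start: it was 33.7% at 500 to 1000 bp, 41.2% at 1000 to 2000 bp and 33.6% at 4000 to 5000 bp. Only 9 members shared an interval with the summit at a start. Where both were present the median member had 0.917 times the signal of the peak at the start, and the member was the stronger of the pair in 325 of 762 cases (42.7%). The remaining 1310 members had no IDR peak at the nearest start.

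Members were clustered in genes. In all, 1034 protein-coding genes held a member, 7.41% of the 13945 annotated and 11.4% of the 9101 with any sequence that meets the rule. The replicates gave 1048, 1037 and 1076 genes. Of these genes 535 held 1 member and 80 held 5 or more, and the 252 genes with 3 or more held 52.7% of all members. Genes with a member had a median of 8.76 kb of sequence that meets the rule, against 0.457 kb for all genes with any. Counts and shares of genes are not adjusted for that length. Its median over all listed genes, those with none included, is given for each list below.

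The most members lay in Tlk, which encodes the Tousled-like kinase of chromatin assembly, and in shn, a zinc finger regulator in BMP signalling. Tlk held 15 members in 10 intervals over 34.6 kb of sequence that meets the rule, and 15, 13 and 15 summits in the replicates. Its best member covered chrX:3740653-3744300, a broad interval with several summits, at 10.7 ± 0.416 times the list median (SD, n = 3). shn held 15 members in 13 intervals over 34.5 kb, and 13, 16 and 18 summits in the replicates. sick, a gene of the actin cytoskeleton, held 14 members over 70.2 kb. Eip75B, an ecdysone-induced nuclear receptor gene, held 13 over 57.8 kb, with its best member at chr3L:18029561-18029961 (5.99 ± 1.44 times). ush held 10 members, as did mam, the coactivator of Notch, and brat, a translational repressor. In brat these lay in 16.5 kb, or 0.605 per kb, the highest density of the 10 genes. tna, the nuclear receptor corepressor Smr and the chromatin gene tou held 9 each. In these 10 genes between 7 and 13 members per gene were supported by all 3 replicates.

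Genes of the ecdysone response were the list with the widest coverage. Ecdysone, the steroid hormone of the fly, acts through the nuclear receptor EcR and a cascade of early and late transcription factors. All 9 genes of the list with sequence that meets the rule held a member, and 9, 8 and 9 of the 10 genes held a summit in the replicates. Over all protein-coding genes with such sequence 11.4% did. The list's genes also had the longest such sequence of the 16 lists, a median of 17.0 kb over its 10 genes. That median includes usp, which had none, while the 0.457 kb for all genes is over those with any. Its 35 members lay at 180 per Mb, against 84.4 per Mb for all members, and the replicate summits at 189 ± 2.97 per Mb, against 84.8 ± 1.69 over all such sequence. EcR held 7 members in 6 intervals, with 7, 7 and 7 summits in the replicates. Hr4, a nuclear receptor gene, held 4, and br and the nuclear receptor gene Hr3 held 3 each. The Hr3 members also lie in CG46321 and CG12912, which overlap it, so their host is uncertain, and the best (chr2R:10224519-10225606) reached 8.69 times the list median. ftz-f1 held 2 members in 1 interval, and Eip78C, Hr39 and Eip74EF held 1 each. Eip74EF had no summit among the strongest peaks of replicate 2.

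Signalling pathways varied. In the EGF receptor pathway 9 of 12 genes with such sequence held a member (217 ± 16.3 summits per Mb, median 2 per gene). They included the receptor gene Egfr with 2 members, the ligand genes spi and Krn with 2 each, and the inhibitors sty with 6 and aos with 3. Of its nuclear effectors, the activator pnt held 5 and the repressor aop held 4. The best sty member lay 598 bp from its start (chr3L:3418331-3418841) at 9.27 times the list median and the best aop member, at chr2L:2165617-2166198, at 7.10 times. Of the 5 members in pnt, 1 was supported by all 3 replicates. In BMP signalling 3 of 10 genes held a member, namely shn, the receptor gene tkv with 4 members and Dad with 2 in 1 interval. Their density of 232 ± 31.3 per Mb rests mostly on shn. In Hedgehog signalling 4 of 9 genes held one (212 ± 25.5 per Mb): the glypican genes dlp with 5 members and dally with 4, the receptor gene ptc with 2 and the ligand gene hh with 1. In Wnt signalling 4 of 15 genes held one (105 ± 8.49 per Mb), with 6 members in the receptor gene fz2, 4 in fz and 1 each in the coreceptor gene arr and the antagonist nkd. In Notch signalling 3 of 7 genes held one (250 ± 17.9 per Mb), with 10 members in mam and 1 each in fng and neur. That density rests mostly on mam. In FGF signalling only the ligand gene bnl of 6 genes held any, with 2 members. The FGF list stood at 34.6 ± 8.57 per Mb, below the density over all such sequence.

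Of 8 Hox genes with sequence that meets the rule 3 held a member (37.5%), against 11.4% of all protein-coding genes with such sequence. The replicates gave 75.8 ± 5.71 summits per Mb, below the 84.8 ± 1.69 over all such sequence. The median was 8.56 kb of such sequence per Hox gene, against 0.457 kb for all genes with any. Abd-B held 4, the tagged gene abd-A 2 and Antp 1. The summits of the trunk genes lay mostly deeper in introns: of 15 IDR summits inside abd-A 12 were intronic and over 5000 bp from a start, of 19 inside Antp 15 were, and of 16 inside Ubx 12 were, with no member in Ubx. All 4 IDR summits inside Abd-B were members, in 28.6 kb of such sequence. The genes lab, pb, Dfd and Scr held no IDR summit in the gene body. The best Abd-B member (chr3R:16970016-16970398) ranked 450, and no peak of the replicate 3 list overlapped it. The best abd-A member (chr3R:16824932-16825558) lay 2830 bp from the nearest start, in a second intron, at 4.26 times the list median. Among Hox cofactors and collaborators 3 of 7 genes held one, with 252 ± 19.0 summits per Mb in the replicates and a median of 1.41 kb per gene. There were 3 members in hth, the partner homeodomain gene, 3 in the trunk zinc finger gene tsh and 2 in inv. The best hth member (chr3R:10616685-10617464) reached 7.52 times the list median. Textbook targets of abd-A or Ubx held members in 7 of 15 cases, with a median of 7.57 kb of such sequence per listed gene. Their 75 ± 6.34 summits per Mb were also below the density over all such sequence. grh, an epidermal and neuroblast transcription factor gene, had 6 in 3 intervals, and salm, betaTub60D, svp, Antp, Con and Ih had 1 each. Of these 6 single members, 3 were supported by all replicates.

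The heart, muscle, potassium channel and axon guidance lists had medians of 4.20, 5.90, 7.59 and 6.76 kb of sequence that meets the rule per listed gene. Over all protein-coding genes with such sequence the median was 0.457 kb, and 11.4% held a member. Heart genes held members in 6 of 16 cases, with 2 in tup and 1 each in Doc1, Doc2, lbe, svp and Ih, and at 69.4 ± 6.01 summits per Mb they lay below the density of all such sequence. Muscle genes held members in 5 of 17 cases, at 50.8 ± 11.2 per Mb, also below the density of all such sequence. There were 6 members in the muscle factor Mef2, 3 in zfh1 and 3 in the myoblast fusion gene kirre, whose 107 kb of such sequence is the longest named here. The best Mef2 member (chr2R:9955298-9955789) reached 6.70 times the list median. Among potassium channel genes 7 of 13 held a member (119 ± 10.3 per Mb), with 7 in Sh, 3 in KCNQ and 2 in Shab. The best KCNQ member, 760 bp from a start at chr2R:10159381-10159938, reached 9.63 times. Among axon guidance genes 5 of 14 held one (104 per Mb in each replicate), with 7 in the midline ligand gene sli, all of them supported by all 3 replicates, and 3 each in the Netrin receptor gene fra and the semaphorin gene Sema1a.

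Chromatin regulators of the Polycomb and trithorax groups held members in 7 of 19 genes, at 310 ± 21.5 summits per Mb, the highest density of the 16 lists. The median listed gene had 2.59 kb of sequence that meets the rule, against 0.457 kb for all genes with any. Of all protein-coding genes with such sequence 11.4% held a member, and all such sequence held 84.8 ± 1.69 summits per Mb. psq, which encodes a protein that binds GAGA sequences, held 7 members. trx, the histone methyltransferase of the trithorax group, held 5 in 3 intervals within 4.38 kb, the best at 8.48 times the list median (chr3R:14283195-14284553). Trl, the gene of GAGA factor itself, held 3 in 2 intervals, and osa, a subunit gene of the Brahma complex, held 3. ph-p, of the Polycomb repressive complex, held 3 in 1 interval, so its count rests on 1 broad peak. Proteasome genes, a constitutive list, held none in 20 genes, which have 2.65 kb of such sequence in all.

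**Figure D4:**
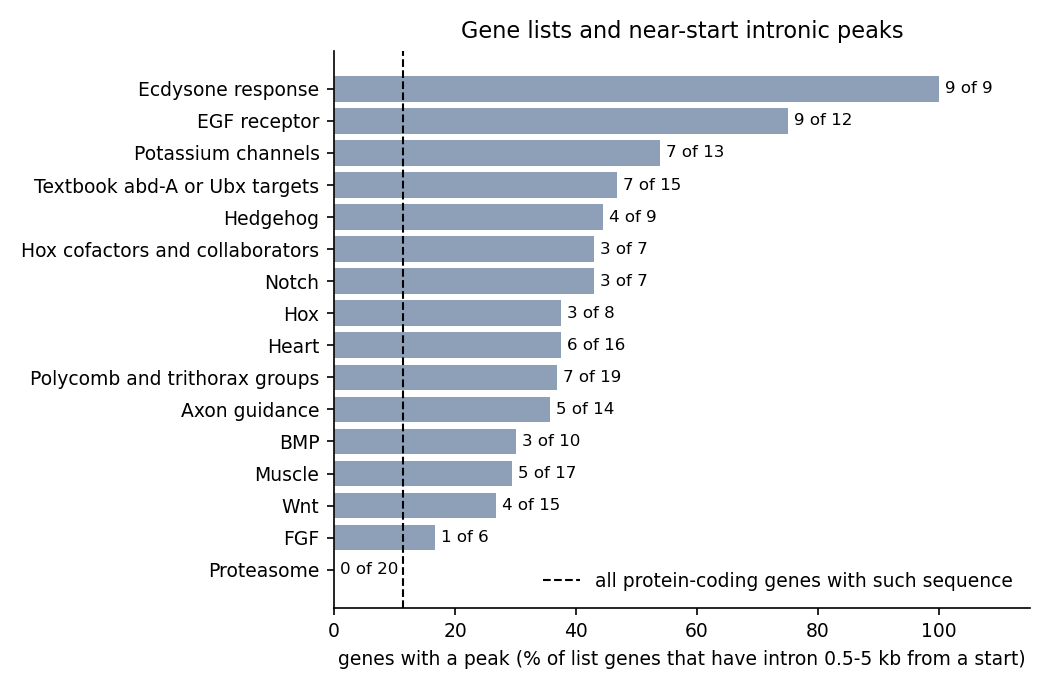
Share of genes in each list that hold at least 1 intronic peak near a start (x axis, percent of list genes with sequence that meets the rule), with counts beside the bars. The dashed line is the 11.4% of all protein-coding genes with such sequence; the ecdysone list stands at 9 of 9 and the proteasome list at 0 of 20. Shares are not adjusted for length of such sequence, a median of 17.0 kb per listed gene in the ecdysone list and 0.056 kb in the proteasome list.

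Words at the summits were then compared with positions 500 bp to either side. TTTATG was found in the window of 50 bp to either side of the summit in 17.5%, 17.1% and 18.4% of the summits of this class in replicates 1, 2 and 3, against 13.2%, 14.0% and 12.8% of the flanking windows, a difference of 4.31 ± 1.18 percentage points (SD, n = 3, exact paired permutation p = 0.25). Over all windows of this length in sequence that meets the rule, 13.1% held it. By distance it was most frequent at the summit itself, with 2.11 ± 0.0842 matches per kb within 50 bp, 1.74 ± 0.117 at 50 to 150 bp and 1.43 ± 0.0141 at 500 to 1000 bp. It was more frequent in these intronic peaks than in peaks within 500 bp of a start (17.7% ± 0.645 against 11.1% ± 0.687, in 3 of 3 replicates, exact p = 0.25). It was less frequent than in far intronic peaks, where it reached 22.3% ± 0.727 (difference -4.65 ± 0.499, lower in 3 of 3, exact p = 0.25). Among members its share was 15.9% in the strongest 20% and 20.3% in the weakest 20%.

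CACACA and GAGAG differed more between summit and flank. CACACA was found in 20.1%, 18.4% and 18.7% of summit windows, against 9.19%, 10.4% and 10.1% of flanks, and it was the word with the largest difference among all 2080 words of 6 letters counted with their reverse complement. GAGAG was found in 19.4%, 18.2% and 19.3%, against 11.2%, 12% and 12.1% of flanks. GAGAG, unlike TTTATG, was densest to the side of the summit, at 4.84 ± 0.413 matches per kb at 50 to 150 bp against 3.58 ± 0.105 within 50 bp. It fell to 2.06 ± 0.0353 at 500 to 1000 bp. CACACA gave 4.57 ± 0.271 per kb within 50 bp, 5.01 ± 0.424 at 50 to 150 bp and 2.14 ± 0.0564 at 500 to 1000 bp. GAGAG was found in 25.4% of the strongest 20% of members and in 16.2% of the weakest 20%, and CACACA in 22.7% and 16.2%. Against peaks within 500 bp of a start, members held CACACA more often (19.1% ± 0.902 against 14.8% ± 0.308) and GAGAG less often (19.0% ± 0.645 against 23.5% ± 1.58), each in 3 of 3 replicates with an exact paired permutation p of 0.25. Far intronic peaks held CACACA in 17.8% ± 0.839 and GAGAG in 17.0% ± 1.09. Intergenic peaks at the same distance held them in 16.2% ± 0.623 and 15.6% ± 1.11. Members were higher than both classes for both words in 3 of 3 replicates (exact paired permutation p = 0.25 each). The members' shares were close to those of the whole IDR list for 2 of the 3 words. GAGAG was found in 18.4% of members and 19.0% of all IDR peaks, TTTATG in 17.8% and 17.6%, and CACACA in 19.0% and 16.6%.

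Of the other 9 words sought, 7 were rarer at summits than in the windows 500 bp to either side in each replicate. TAATTA was found in 5.45%, 6.10% and 5.30% of summit windows, against 9.16%, 8.27% and 8.99% of flanks (difference -3.19 ± 0.885 percentage points, exact p = 0.25). By distance it gave 0.630 ± 0.0606 matches per kb within 50 bp and 0.478 ± 0.0432 at 50 to 150 bp. It gave 0.549 ± 0.0424 at 150 to 250 bp and 0.873 ± 0.0321 at 250 to 500 bp. TAATTA was thus denser within 50 bp than at 50 to 250 bp in each replicate, though below its density further out. The TAATTA share at summits of this class, 5.62% ± 0.423, was above that of far intronic peaks (4.14% ± 0.142). It was also above that of intergenic peaks at the same distance (4.54% ± 0.520). Peaks within 500 bp of a start stood slightly higher, at 5.76% ± 0.591. Each order held in 3 of 3 replicates. TGATTTAT, a composite site of a Hox protein with Extradenticle, was found in 0.721% ± 0.0984 of summit windows and in 1.19% ± 0.151 of flanks, and AGATAA, the core bound by the family of Pannier and Serpent, in 4.67% ± 0.220 and 6.99% ± 0.0997. TGATTAAT and TGATTGAT, further composite sites, CAGGTA, the site of Zelda, and the E-box CATATG were also lower at summits. TGACAG, the site of Homothorax, was higher by 0.446 ± 0.345 percentage points in the replicate lists, but in the IDR members it was found in 3.28% of summits and 3.43% of flanks. CAGCTG differed by 0.194 ± 0.479 (exact p = 0.75). Base composition moved with these counts: summit windows were 44.2% ± 0.983 G and C, against 38.7% ± 0.277 in flanks, and the 4 words lowest against their flanks among the 2080 held only A and T. Its part in the word counts was not tested.

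**Figure D5:**
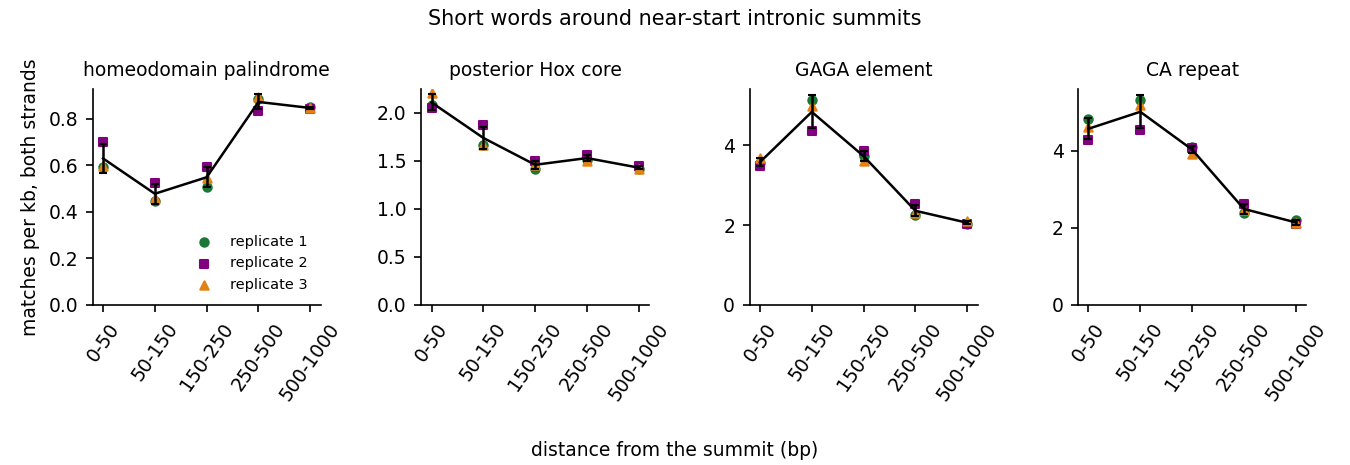
Matches per kb on both strands (y axes, different scales) by distance from the summit (x axis, bp) for the homeodomain palindrome, the posterior Hox core, the GAGA element and the CA repeat, at intronic summits near a start. Black lines are means of 3 replicates with SD and points are replicates. The Hox core is highest within 50 bp and the GAGA element at 50 to 150 bp. The palindrome is lower within 250 bp than beyond, and within 250 bp it is highest in the innermost 50 bp.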

How the data were processed

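Deposited data were 5 narrowPeak lists on dm6, made by the authors: 1 per replicate, 1 on the pooled alignments and 1 IDR list, and the deposited text records name the same control file for each replicate. The sources used here give no aligner, caller or IDR threshold, and read depth is unknown. The signal value, a score in the deposited files, was divided by the median of its list. Replicate and pooled lists held 30000 peaks each, and the IDR list was the 8143 strongest pooled peaks. Each summit was counted as a peak, and 517 entries repeated an interval.

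Genes came from Ensembl release 115 on the 6 main arms (18164 genes, without 5809 transposable element entries), and sequence from the RefSeq copy of the same assembly. Replicate lists were cut to their 8143 strongest peaks. A member takes the strongest replicate peak that overlaps it. Densities divide summits by sequence of the same class, and positions were tiled by windows of 50 bp to either side. Tests were exact paired permutation tests over 3 replicates, two-sided. Intervals are 95% Clopper-Pearson and cover counting error only. Classification, word search and test were checked on simulated data. Peak lists hold no expression values, so the labelled embryos were not checked against marker genes. Python 3.11.15, numpy 2.4.6, pandas 2.3.3 and scipy 1.17.1 were used.

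The members and gene lists were chosen with earlier results of these data known. Named genes were the hosts of the 20 strongest members, the 10 coding genes with most members and up to 3 genes per list with most members. Further list members and the summits by class in Hox genes were named after their values were seen. The list symbols WntD and Dl had no match.

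Alternatives were other starts, distance limits, exon gaps, overlap rules, word windows, one summit per interval, the stronger 50% of peaks and leaving out each replicate.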

Additional observations from a re-analysis of the deposited data

How the results depend on the processing

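The density ratio to far introns stayed above 1 under every alternative run. It was 1.39 with starts of protein-coding transcripts only and with 1000 to 5000 bp from the start, 1.57 with 500 to 2000 bp, 1.62 over 300 bp from any exon and 1.55 in the stronger 50% of peaks. Under alternatives chosen after seeing the data it was 1.17 against far introns within 20000 bp of a start, 1.33 outside soft-masked repeats and 1.29 with transposable element entries counted as genes. Without each replicate in turn it was 1.42 to 1.45. The count of members was 1057 at 500 to 2000 bp and 1034 in the stronger 50%, both by construction, and 1656 to 2255 under the others. Median strength was 2.52 at 500 to 2000 bp, 2.37 with one summit per interval and 3.36 in the stronger 50%, and 2.43 to 2.47 without each replicate. Support in all replicates was 40.7% where 50% of both peaks had to overlap, 61.4% for summits within 100 bp, 98.7% with all peaks of each list, 71.9% with one summit per interval, 97.6% in the stronger 50%, and 79.2% to 81.7% without each replicate, where only 2 replicates had to share it. The share with a promoter peak was 28.3% within 250 bp of the start, 25.6% in the stronger 50%, where fewer promoter peaks remain, 33.2% with transposable element entries, and 35.5% to 38.2% without each replicate. The first-intron share was 72.6%, 68.4%, 77.6%, 71.3%, 70.1%, 74.5% and 68.4% with coding starts, 1000 to 5000 bp, 500 to 2000 bp, the exon gap, one summit per interval, the stronger 50% and transposable element entries, above its share of sequence (54.5% to 64.5%) each time. The excess was smaller with the exon gap, at 71.3% against 64.0% of sequence, than in the main result, at 70.7% against 57.4%. TAATTA was found in 2.80% of windows of 25 bp and 10.1% of windows of 100 bp to either side of the summit, below its flanks (4.36% and 16.2%), and in 5.38% to 5.78% without each replicate. TTTATG stayed above its flanks under all alternatives run, and so did GAGAG as well as CACACA. With 1 group there were no samples to pair across groups. All tests paired values within each replicate, either classes of peaks or summit windows and their flanks. Read depth is unknown, so absence of a peak does not show absence of binding.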
